A study of Homo sapiens with 6 samples.

Results

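The genes described here are 10 genes of bile acid synthesis and transport, taken by symbol from a table of 60240 Ensembl genes: the enzyme genes CYP7A1, CYP7B1, CYP8B1 and CYP27A1, the transporter genes SLC51A, SLC51B, ABCB11, ABCC2 and ABCC3, and the hormone gene FGF19. All 10 were found once each, by Ensembl ID with the version removed. They were measured in HepG2, an established cell line from a human hepatocellular carcinoma, as total RNA of 3 cultures that had received recombinant GDF11 at 100 ng/ml over 24 h and of 3 untreated control cultures, which the labels describe as biological replicates. GDF11 is a secreted ligand of the TGF-beta family, and no vehicle for the control cultures is named in the labels. The series title names lipid accumulation in liver cancer cells after GDF11 as its subject, and the RNA comparison asks which transcripts differ after a day of treatment.

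Hepatocytes make bile acids from cholesterol along a pair of routes. In the classical route CYP7A1 adds the first, rate-limiting hydroxyl group to the ring and CYP8B1 decides how much cholic acid is formed. In the alternative route CYP27A1 first oxidises the side chain and CYP7B1 then hydroxylates the ring. ABCB11 (the bile salt export pump) and ABCC2 (MRP2, which carries conjugated organic anions) sit in the canalicular membrane and export into bile, while ABCC3 (MRP3) and the heterodimer of SLC51A and SLC51B (OST-alpha and OST-beta) sit in the basolateral membrane and export towards blood. FGF19 is the hormone that, through the receptor FGFR4 and its co-receptor KLB, lowers CYP7A1 expression, and the bile acid receptor FXR (gene NR1H4) is known to induce SLC51A, SLC51B, ABCB11 and FGF19.

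The authors' values are variance-stabilised and on a log2 scale, and 5.52 is the value given to genes with 0 reads. They were also turned back into reads normalised to a common depth, the unit meant by normalised reads below. Differences are GDF11 minus control on the variance-stabilised scale with the standard error of limma, a linear model fitted to 18723 genes, and a gene was called at a Benjamini-Hochberg adjusted p under 0.05. The scale compresses differences of genes with few reads. Depth, estimated from the lowest values, lay between 47900000 and 53400000 reads a library, and RNA integrity numbers were 9.4 to 9.6 in GDF11 libraries and 9.6 to 9.9 in control libraries. The SMAD target genes SMAD7, SKIL and PMEPA1 were called higher with GDF11, by 2.10 ± 0.29, 3.06 ± 0.21 and 2.61 ± 0.16 (adjusted p = 0.00124, 3.45e-05 and 1.54e-05). PMEPA1 had 0, 0 and 5.81 normalised reads in controls. It passed the filter on low values through its GDF11 libraries, so its call is not independent of its difference. All 8 hepatocyte markers were detected, at a summed 1245304 to 1436927 normalised reads in GDF11 libraries and 1551591 to 2259777 in control libraries. The leukocyte markers PTPRC, CD3E and MS4A1, the endothelial markers TEK and CLDN5 and the cholangiocyte marker CFTR were at 5.52 in all 6 libraries, and 7 of 8 cholangiocyte markers were detected, summing to 171587 to 176513 normalised reads in GDF11 libraries and 111730 to 156983 in control libraries. The leukocyte list, mostly LYZ, summed to 32536 to 34201 normalised reads in GDF11 libraries and 68859 to 80400 in controls, the endothelial list to 13 to 33 in GDF11 libraries and 53 to 97 in controls, and the stellate or fibroblast list to 4352 to 5293 in GDF11 libraries and 4125 to 6000 in controls. Sums can hide members that moved in opposite directions, and those named next were picked after their values were seen. In the stellate or fibroblast list, COL1A1 (3.22 ± 0.23, adjusted p = 3.83e-05) and PDGFRB (0.92 ± 0.23, adjusted p = 0.0227) were called higher. ACTA2 was called lower (-0.98 ± 0.23, adjusted p = 0.0174). In the cholangiocyte list, mostly SPP1, KRT19 and KRT7 were called higher and SOX9 lower. The part of these markers in the results was not tested. Without control replicate 3, 3647 genes were called higher and 3993 lower with GDF11, against 2185 and 2017 with all 6 libraries. In such bulk RNA, fewer expressing cells and less RNA per cell cannot be told apart.

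With GDF11, RNA of SLC51B, CYP27A1 and CYP7A1 fell and RNA of ABCC3 rose. The other 4 tested genes were not called: SLC51A, ABCC2 and ABCB11 had lower values with GDF11 in all 3 libraries than in any control, and CYP8B1 had higher ones. CYP7B1 and FGF19 had next to no reads and were not tested. So 1 of the 8 tested genes was called higher and 3 lower, where 11.7% of all tested genes were called higher and 10.8% lower. The groups did not overlap for any of the 8, with 2 higher and 6 lower, against 20.9% and 19.6% of all tested genes. CYP7A1 passed the filter on low values through its control libraries, so its place in these counts is not independent of its difference. The median difference of the 8 was -0.58, and that of all tested genes 0.01.

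**Figure D1:**
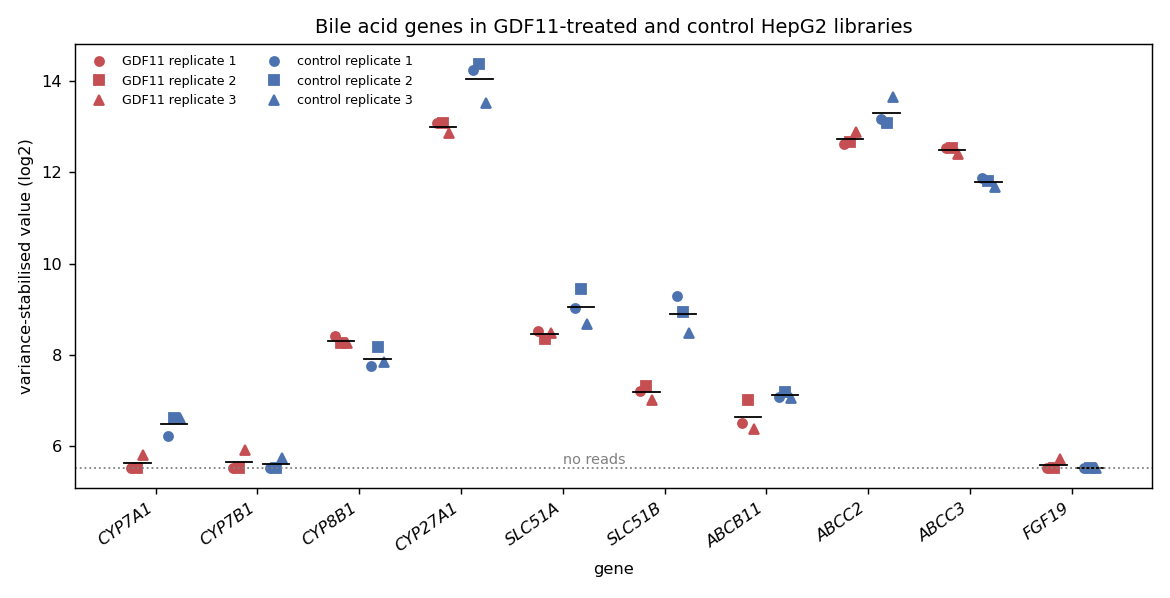
Variance-stabilised log2 value (vertical axis) of each of the 10 bile acid genes (horizontal axis) in the 3 GDF11 libraries (red, left) and the 3 control libraries (blue, right). Symbols mark the replicate number, black lines the group means and the dotted line the value of a gene without reads, 5.52. SLC51B lies between 7.01 and 7.31 with GDF11 and between 8.47 and 9.28 in controls, while ABCC3 is the gene called higher, at 12.41 to 12.55 with GDF11 against 11.67 to 11.88 in controls.

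CYP27A1 (ENSG00000135929.9, chromosome 2, 218782147 to 218815293 of GRCh38), the mitochondrial sterol 27-hydroxylase, had the highest level of the 10 genes per transcript length in both groups. It had 8543, 8543 and 7403 normalised reads in GDF11 replicates 1, 2 and 3, against 19228, 21191 and 11650 in control replicates 1, 2 and 3. The groups did not overlap, and control replicate 3 lay between the other controls and the GDF11 libraries. The means were 8163 ± 658 with GDF11 and 17357 ± 5038 in controls (SD, n = 3 each), so that the control mean was 2.13 times that with GDF11. The gene fell by 1.04 ± 0.23 (adjusted p = 0.0125). That call ended without GDF11 replicate 3 (-0.97, adjusted p = 0.0531) and without control replicate 1 (-0.94, adjusted p = 0.0594), and adjustment for the RNA integrity number gave -0.40 (adjusted p = 0.274). Without control replicate 3 it was -1.30 (adjusted p = 0.000134).

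CYP7A1 (ENSG00000167910.4, chromosome 8, 58490178 to 58500163) was near the lowest value in HepG2 cells. Its values came out as whole reads, 0, 0 and 2 in the GDF11 libraries against 10, 23 and 29 in the control libraries. Almost all reads of the gene thus came from controls, and 1 GDF11 library held the 2 reads of that group. Scaled for depth, reads were 36.5 times as many in controls as with GDF11, with an exact 95% interval of 9.68 to 307.8 that covers counting error only. On the variance-stabilised scale the values were 5.61 ± 0.16 with GDF11 and 6.49 ± 0.23 in controls (SD, n = 3 each), and the gene was called lower (-0.87 ± 0.13, adjusted p = 0.00223). On a log2 scale of normalised reads plus 1 the difference was -3.96, and plus 8 it was -1.77, so its size at so few reads depends on the scale. The call held when any single library was left out (adjusted p 0.00244 to 0.0114). The filter on low values was not redone for these sets. With all libraries the gene's mean lay 0.528 above the lowest value, where 0.5 was needed, and it passed through its controls. These p-values are therefore not independent of its difference.

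CYP8B1 (ENSG00000180432.6, chromosome 3, 42872192 to 42875879), the sterol 12-alpha-hydroxylase, had 252.3, 222.3 and 222.4 normalised reads in the GDF11 libraries, against 131.9, 201.2 and 146.5 in the control libraries. All 3 GDF11 libraries lay above the highest control, yet the gene was not called (0.40 ± 0.16, 95% interval 0.04 to 0.75, adjusted p = 0.0995). Its exons overlap those of ACKR2, a chemokine scavenger receptor gene on the opposite strand. ACKR2 stood at 10.12, 10.18 and 10.11 with GDF11 and at 8.17, 8.56 and 8.49 in controls, and was called higher by 1.73 ± 0.16 (adjusted p = 0.000131). The libraries were made with a directional kit, but no source used here says whether quantification used the strand, and the part of ACKR2 reads in the CYP8B1 values was not tested.

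CYP7B1 (ENSG00000172817.4), the oxysterol 7-alpha-hydroxylase, had 0, 0 and 4 reads with GDF11 and 0, 0 and 1 in controls. Both groups overlapped at the lowest value, and no difference was detectable at this depth. FGF19 (ENSG00000162344.4, chromosome 11) had a single read, in GDF11 replicate 3, and 0 reads in the other 5 libraries. HepG2 cells thus gave almost no reads for the ring hydroxylase of the alternative route or for the hormone, whereas CYP27A1 ranked first.

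SLC51B and SLC51A encode the partners of one heterodimeric exporter and are described together with ABCB11, a further FXR target. The 250 bases before the RefSeq start of each (GRCh38.p14, strand of the gene, 5′ to 3′) are shown because they can be read for the element FXR is known to bind, the sequence AGGTCA followed after 1 free base by its reverse complement TGACCT, which reads the same on both strands. Capitals mark the first stretch of 13 bases with the fewest mismatches to the 12 fixed letters.
SLC51B, chr15:65045137-65045386, plus strand: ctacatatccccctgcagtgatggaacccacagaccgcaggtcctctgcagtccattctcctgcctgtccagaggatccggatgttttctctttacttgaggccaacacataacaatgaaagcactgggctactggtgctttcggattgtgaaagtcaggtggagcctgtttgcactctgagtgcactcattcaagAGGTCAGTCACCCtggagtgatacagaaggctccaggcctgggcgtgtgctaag
SLC51A, chr3:196216284-196216533, plus strand: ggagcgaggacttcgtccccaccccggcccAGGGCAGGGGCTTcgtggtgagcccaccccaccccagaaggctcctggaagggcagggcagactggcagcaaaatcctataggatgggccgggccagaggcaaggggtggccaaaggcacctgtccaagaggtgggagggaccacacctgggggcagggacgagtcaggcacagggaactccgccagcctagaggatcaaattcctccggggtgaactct
ABCB11, chr2:169031325-169031574, minus strand: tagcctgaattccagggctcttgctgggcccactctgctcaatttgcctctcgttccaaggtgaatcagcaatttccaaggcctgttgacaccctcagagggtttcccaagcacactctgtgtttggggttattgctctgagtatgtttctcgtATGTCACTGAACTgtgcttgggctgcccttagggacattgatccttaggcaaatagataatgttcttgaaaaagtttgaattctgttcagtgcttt
The best stretch had 2 mismatches for SLC51B, 54 to 42 bases before the start, and 2 for ABCB11, 96 to 84 bases before it. Of 35116 RefSeq promoters of this length, 0.95% held a stretch with 2 or fewer mismatches. SLC51A had 4 mismatches at best, as few as 46.5% of promoters, and CYP27A1 and ABCC2 had 5, as few as 95.16%. A match in letters shows no binding. Stretches with more mismatches, left in lower case, were not assessed, so the capitals do not locate the site that FXR uses. These 5 of the 10 genes had an entry in the RefSeq promoter table.

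SLC51B (ENSG00000186198.4, chromosome 15, 65045387 to 65053397) showed the largest difference of the tested bile acid genes on the variance-stabilised scale. It had 70.1, 79.8 and 53.5 normalised reads in the GDF11 libraries, against 532.6, 403.2 and 268.3 in the control libraries. The lowest control library, at 268.3, lay far above the highest GDF11 library, at 79.8. The mean was 67.8 ± 13.3 with GDF11 and 401.3 ± 132.2 in controls (SD, n = 3 each), the control mean being 5.92 times that with GDF11. The gene fell by 1.72 ± 0.21 (adjusted p = 0.000627), and the call held without any single library (differences -1.93 to -1.53). RASL12, on the opposite strand with overlapping exons, also had lower values, close to the lowest value of the table. They were 5.88, 5.94 and 5.91 with GDF11 against 6.61, 6.52 and 6.44 in controls (-0.61 ± 0.09, adjusted p = 0.00190). RASL12 passed the filter on low values through its control libraries, so this p-value is not independent of its difference.

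SLC51A (ENSG00000163959.10, chromosome 3, 196216534 to 196233427) had 283.5, 239.7 and 270.3 normalised reads with GDF11, against 433.1, 604.7 and 321.5 in controls. The groups did not overlap, but control replicate 3 lay at 0.71 of the way from the mean of the other controls to the GDF11 mean, and the gene was not called (-0.59 ± 0.20, 95% interval -1.05 to -0.14, adjusted p = 0.0651). Without control replicate 3 it was called (-0.78, adjusted p = 0.00609). Adjusted for the RNA integrity number, the difference was -0.12 (adjusted p = 0.822). PCYT1A, on the opposite strand, was not called (0.15 ± 0.14, adjusted p = 0.465).

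Within each library, the ratio of SLC51B to SLC51A reads was 0.25, 0.33 and 0.20 with GDF11, against 1.23, 0.67 and 0.83 in controls. The beta partner was therefore lower relative to the alpha partner in every GDF11 library than in any control. The log2 ratio differed by -1.80, and by -1.84 without control replicate 3. The two-sided exact permutation p was 0.1, the smallest that 3 against 3 libraries can give. The ratio was chosen after its values were seen.

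ABCB11 (ENSG00000073734.10, chromosome 2, 168915390 to 169031324) was a low transcript. It had 22.2, 52.9 and 16.3 normalised reads in the GDF11 libraries, against 58.0, 68.5 and 57.1 in the control libraries. GDF11 replicate 2 lay next to the controls, and the gene was not called (-0.48 ± 0.17, 95% interval -0.86 to -0.10, adjusted p = 0.0714). Without GDF11 replicate 2 it was called lower (-0.67, adjusted p = 0.0149).

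ABCC2 (ENSG00000023839.12, chromosome 10, 99782640 to 99852594) was the most abundant of the 5 transporters per transcript length in both groups. It had 6256, 6434 and 7511 normalised reads with GDF11, against 9185, 8546 and 12876 in controls. Here control replicate 3 was the highest library, on the far side of the other controls from the GDF11 libraries. The gene was not called (-0.57 ± 0.19, 95% interval -1.0 to -0.15, adjusted p = 0.0579). It was called without control replicate 3 (-0.40, adjusted p = 0.0336) and after adjustment for the RNA integrity number (-1.06, adjusted p = 0.00725).

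ABCC3 (ENSG00000108846.16, chromosome 17, 50634881 to 50692253) moved the other way. It had 5894, 5855 and 5364 normalised reads in the GDF11 libraries, against 3684, 3482 and 3174 in the control libraries. Replicates lay close together in both groups, with means of 5704 ± 296 with GDF11 and 3447 ± 257 in control (SD, n = 3 each), so that the GDF11 mean was 1.66 times the control mean. The gene rose by 0.71 ± 0.14 (adjusted p = 0.00742). The difference was 0.66 to 0.76 when single libraries were left out, and the call ended only without GDF11 replicate 1 (0.69, adjusted p = 0.0505).

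The ratio of ABCC3 to ABCC2 reads was 0.94, 0.91 and 0.71 with GDF11, against 0.40, 0.41 and 0.25 in controls. The basolateral exporter thus stood closer to the canalicular one in each GDF11 library than in any control. The log2 ratio differed by 1.31 (two-sided exact permutation p = 0.1, the smallest possible), and by 1.07 without control replicate 3. This ratio, too, was chosen after its values were seen.

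**Figure D2:**
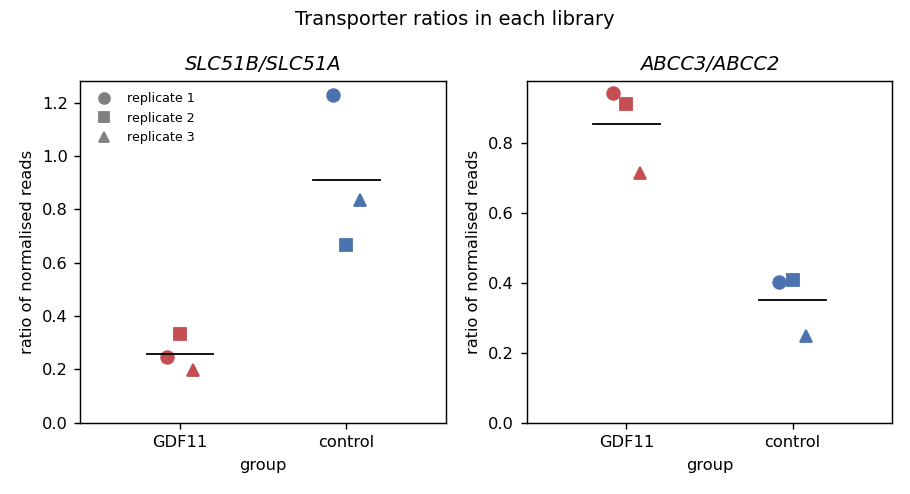
Ratio of normalised reads (vertical axes) of SLC51B to SLC51A (left panel) and of ABCC3 to ABCC2 (right panel) in the GDF11 libraries (red) and control libraries (blue). Symbols mark the replicate number and lines the group means, 0.26 for GDF11 and 0.91 for control in the left panel, and 0.86 for GDF11 and 0.35 for control in the right panel. The groups do not overlap in either panel.

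Levels of different genes were compared as normalised reads per kb of the longest annotated coding transcript. With GDF11 the order was CYP27A1 (4308 ± 347 per kb, SD, n = 3), ABCC2 (1160 ± 117), ABCC3 (1002 ± 52), SLC51A (185 ± 16), SLC51B (73.4 ± 14.4), CYP8B1 (63.0 ± 4.7) and ABCB11 (4.39 ± 2.84), with CYP7A1, FGF19 and CYP7B1 at 0.19 or less. In controls it was CYP27A1 (9159 ± 2659), ABCC2 (1757 ± 403), ABCC3 (605 ± 45), SLC51B (434 ± 143), SLC51A (317 ± 100), CYP8B1 (43.3 ± 9.9), ABCB11 (8.83 ± 0.91) and CYP7A1 (7.73 ± 3.37), with CYP7B1 and FGF19 at 0.04 or less. Neighbours whose libraries overlapped were SLC51B and CYP8B1 with GDF11, and in controls ABCC3 and SLC51B, SLC51B and SLC51A, and ABCB11 and CYP7A1. The bottom genes overlapped in both groups. Among the genes above ABCB11, the order differed between the groups for SLC51A and SLC51B alone: SLC51B lay below SLC51A with GDF11, and the 2 were not separated in controls.

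**Figure D3:**
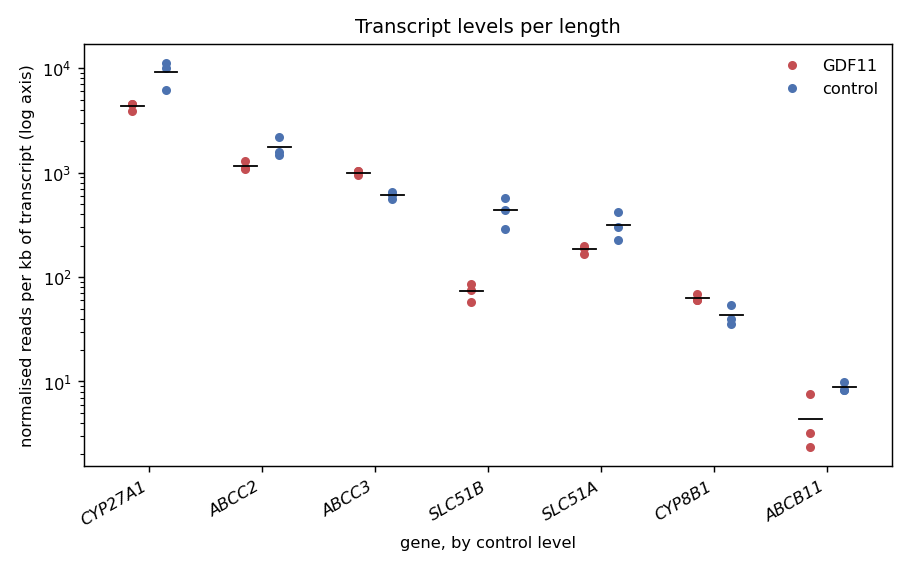
Normalised reads per kb of transcript (vertical log axis) of the 7 bile acid genes with more than a few reads in every library, ordered by control level. Points are the 3 GDF11 libraries (red, left) and the 3 control libraries (blue, right), and lines the group means. CYP27A1 lies highest in both groups, and SLC51B shows the widest gap, 73.4 per kb with GDF11 against 434 per kb in controls.

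By the Pearson correlation over the 6 libraries, the genes whose profile was most like that of SLC51B were NUDT16 (r = 0.9987), LINC02532 (0.9979), NQO1, a quinone reductase gene (0.9977), RPL13AP6 (0.9977) and CYB5B (0.9975). With 2 groups of 3, such values mostly follow the treatment and the order of the controls: 1979 of 18556 tested genes with a symbol had an r of at least 0.9. The differences of these 5 were smaller, -0.91 to -0.34, against -1.72 for SLC51B.

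Of 16 genes for ring and side chain steps, conjugation and minor hydroxylation routes, 15 were tested. Of these, 6 were called lower, 1 higher and 8 not, with a median difference of -0.40. Of all tested genes, 10.8% were called lower and 11.7% higher. ACOX2, the peroxisomal oxidase that shortens the bile acid side chain, had 344, 428 and 387 normalised reads with GDF11 against 1265, 1782 and 1296 in controls and fell by 1.69 ± 0.17 (adjusted p = 0.000268). SLC27A5, the bile acyl-CoA synthetase, fell by 1.15 ± 0.23 (adjusted p = 0.00791) and BAAT, which joins bile acids to glycine or taurine, by 0.60 ± 0.13 (adjusted p = 0.0133). EHHADH, a peroxisomal beta-oxidation enzyme, fell by 1.02 ± 0.23 (adjusted p = 0.0134). The other genes called lower, named after their values were seen, were AKR1D1, the steroid 5-beta-reductase (-1.39 ± 0.32, adjusted p = 0.0157), and HSD3B7, the next enzyme after the ring hydroxylases (-0.88 ± 0.24, adjusted p = 0.0307). The call of HSD3B7 held with all 6 libraries and without control replicate 3, and in no other set of 5. CYP39A1, a minor oxysterol 7-alpha-hydroxylase, was the gene called higher (0.67 ± 0.17, adjusted p = 0.0238), a call that ended without GDF11 replicate 1 or 2 or control replicate 1 or 2 (differences 0.52 to 0.69). AKR1D1 was not called without control replicate 1 (-1.44, adjusted p = 0.0548) or control replicate 2 (-1.11, adjusted p = 0.0535). After adjustment for the RNA integrity number ACOX2 (-1.52, adjusted p = 0.00803) and EHHADH (-1.49, adjusted p = 0.0169) were still called. The calls of SLC27A5 (-0.59, adjusted p = 0.215), BAAT (-0.43, adjusted p = 0.251), AKR1D1 (-0.46, adjusted p = 0.457), HSD3B7 (-0.24, adjusted p = 0.615) and CYP39A1 (0.57, adjusted p = 0.247) ended. Without GDF11 replicate 2 the calls of BAAT (-0.54, adjusted p = 0.0574) and EHHADH (-0.88, adjusted p = 0.0526) ended and 3 of the list were called lower.

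Of 16 other transporters of bile acids and bile lipids, 10 were tested. Of these, 3 were called lower, 0 higher and 7 not, with a median of -0.31 (-0.19 without control replicate 3). The share called lower over all tested genes was 10.8%, and that called higher 11.7%. SLC10A1, the sodium-dependent bile acid uptake carrier NTCP of hepatocytes, had 0.96, 0 and 0.84 normalised reads with GDF11 and 0, 1.21 and 2.88 in controls. SLCO1B1 and SLCO1B3, the other main uptake carriers of liver, were not tested either, for lack of reads. SLCO2B1, an organic anion uptake carrier, fell by 1.59 ± 0.15 (adjusted p = 0.000154), ABCG2, an efflux pump, by 1.39 ± 0.14 (adjusted p = 0.000258) and ABCG8, a subunit of the sterol exporter into bile, by 1.08 ± 0.14 (adjusted p = 0.00100). ATP8B1, the flippase of the canalicular membrane, was not called (-0.54 ± 0.18, adjusted p = 0.0646).

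Of 20 regulators, 19 were tested, 10 were called lower, 3 higher and 6 not, with a median of -0.57. Over all tested genes, 10.8% were called lower and 11.7% higher. NR1H4, for FXR, had 633, 627 and 761 normalised reads with GDF11 against 2502, 2299 and 1769 in controls, and fell by 1.57 ± 0.17 (adjusted p = 0.000360). NR0B2, for the FXR-induced repressor SHP, was not called (-0.39 ± 0.17, adjusted p = 0.132), and its groups overlapped. The receptors through which FGF19 acts were lower, FGFR4 by 0.83 ± 0.21 (adjusted p = 0.0201) and KLB by 0.99 ± 0.21 (adjusted p = 0.0119). The call of FGFR4 held without control replicate 3 and ended without any other single library, and it ended with the RNA integrity covariate (-0.29, adjusted p = 0.352). NR1H3 (LXR-alpha, a receptor of oxysterols) was called lower too (-1.10 ± 0.22, adjusted p = 0.00874), but not under that covariate (-0.46, adjusted p = 0.207). HNF4A, a hepatocyte transcription factor that supports CYP7A1 and CYP8B1, was not called (-0.46 ± 0.15, adjusted p = 0.0536). Without control replicate 3, both HNF4A (-0.48, adjusted p = 0.0138) and NR0B2 (-0.53, adjusted p = 0.00931) were called lower.

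Of the genes called higher, VDR, for the vitamin D receptor, which also binds lithocholic acid, had 2009, 1848 and 1709 normalised reads with GDF11 against 218, 409 and 413 in controls, and rose by 2.20 ± 0.21 (adjusted p = 0.000188). NR1I2, for the xenobiotic and bile acid sensor PXR, had 2087, 1879 and 2156 with GDF11, against 563, 630 and 868 in control, and rose by 1.48 ± 0.18 (adjusted p = 0.000561). MAFG, for a small MAF transcription factor and named after its value was seen, was called as well (0.60 ± 0.18, adjusted p = 0.0475), and its call held only without control replicate 3 among the sets of 5. It was not called with the RNA integrity covariate (0.28, adjusted p = 0.534) or without the filter on low values (adjusted p = 0.0707). Leaving out single libraries other than control replicate 3 left 4 or 5 regulators called lower, and the RNA integrity covariate left 3.

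Among 9 genes of bile acid detoxification, 7 were tested, 2 called higher, 1 lower and 4 not, with a median of 0.19. Among all tested genes, 11.7% were called higher and 10.8% lower. SULT2A1, the sulfotransferase that sulfates bile acids and steroids, had 611, 759 and 802 normalised reads with GDF11, against 6217, 5555 and 4798 in controls, the control mean being 7.63 times that with GDF11 (-2.79 ± 0.16, adjusted p = 1.44e-05). CYP2B6 and CYP3A4 rose, by 1.15 ± 0.13 (adjusted p = 0.000455) and 0.57 ± 0.13 (adjusted p = 0.0124), both at low levels and both in families whose similar members can share reads. The call of CYP3A4 ended without GDF11 replicate 3 (0.51, adjusted p = 0.0514) and with the RNA integrity covariate (0.52, adjusted p = 0.163). UGT1A1, whose last exons are shared by the UGT1A genes, was not called (-0.46 ± 0.15, adjusted p = 0.0579). It was called lower without GDF11 replicate 2 (-0.61, adjusted p = 0.0241), after quantile normalization (-0.56, adjusted p = 0.0273) and with library weights (-0.57, adjusted p = 0.015).

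Of 10 known FXR targets outside the bile acid genes, 5 of which stand in the lists above, 4 were called lower, 0 higher and 6 not, with a median of -0.61. Besides BAAT and SLC27A5 these were the plasma protein genes KNG1, for kininogen (-1.46 ± 0.15, adjusted p = 0.000233), and FETUB, for fetuin-B (-1.27 ± 0.14, adjusted p = 0.000320). Of all 18723 tested genes, 2017 were called lower with all 6 libraries. Without control replicate 3, 8 of the 10 were called lower, and 3993 of all tested genes. With the RNA integrity covariate it was 2 of the 10, and 721 of all tested genes.

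**Figure D4:**
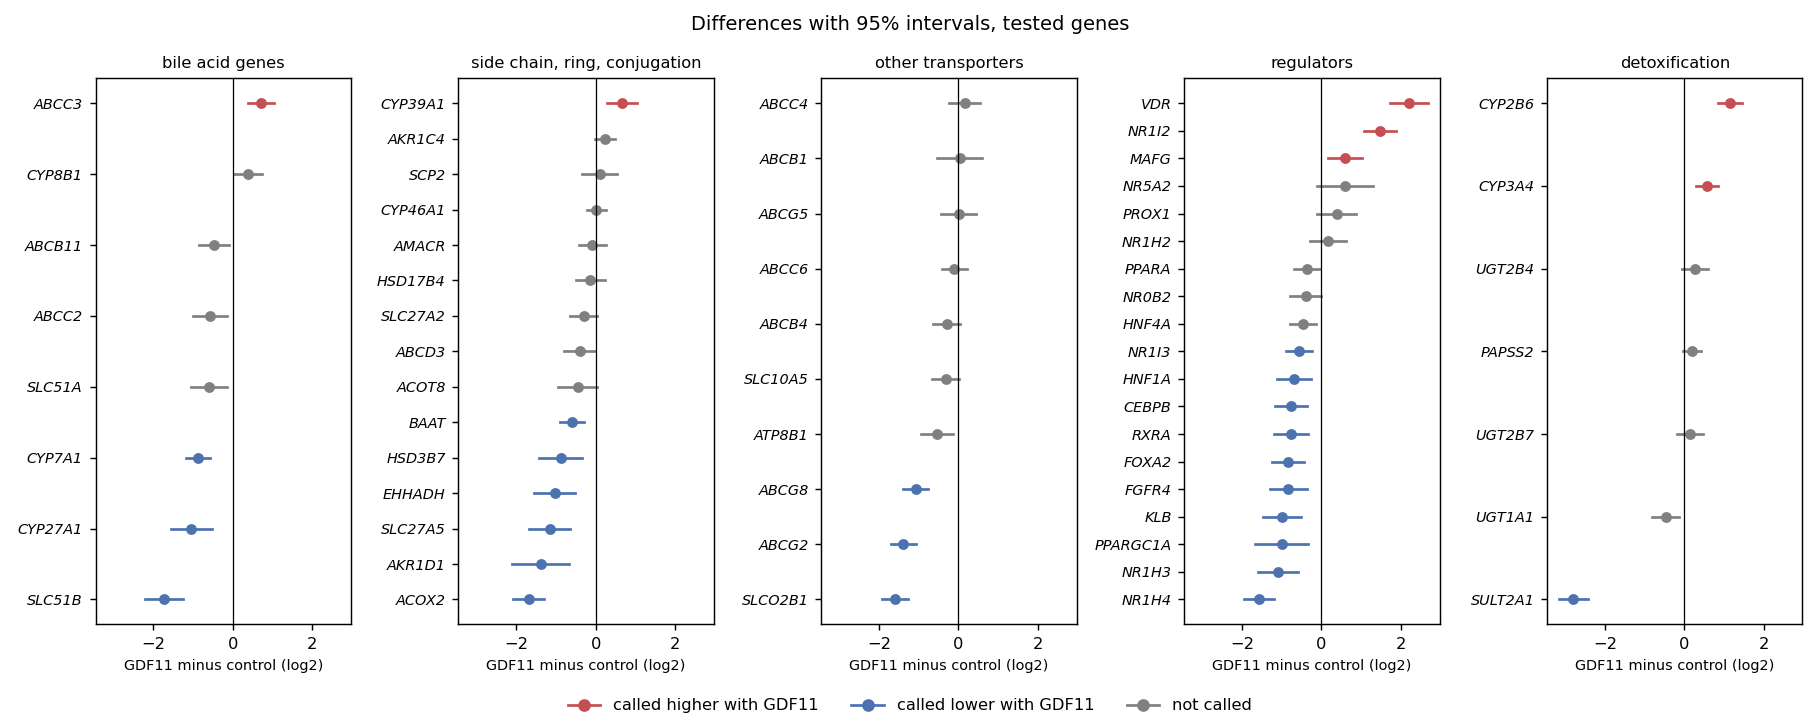
GDF11 minus control difference on the variance-stabilised log2 scale (horizontal axes) with limma's 95% interval for each tested gene of 5 groups, ordered by size. Red marks genes called higher, blue genes called lower and grey genes not called. SULT2A1 (-2.79) and VDR (2.20) lie farthest from 0, and SLC51B (-1.72) farthest among the bile acid genes.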

How the data were processed

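Total RNA of 6 HepG2 libraries (3 GDF11, 3 control) was sequenced as 75-base single reads from 250 ng of RNA, per the labels' protocols. The authors deposited 1 table of variance-stabilised log2 values. Their processing notes list the GRCh38 build, Salmon 1.2.1, Trimmomatic and DESeq2, per the submitters, whereas the labels' protocol names STAR 2.6 and hg19, and no source used here says which made the table.

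Normalised reads were computed by inverting the variance-stabilising curve from its lowest value. The commonest lowest step served as 1 read and gave the depth. Of low values (up to 20 reads), 71.0% to 74.2% were whole reads within 0.01, so genes were not tested on counts. The exact interval for CYP7A1, whose values were whole reads, is binomial and pooled the libraries of each group. Reads are not independent molecules, so intervals cover counting error only.

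A gene entered the test when its mean exceeded the lowest value by 0.5 or more, which 18723 did. The test was limma's (version 3.58.1, R 4.3.3; lmFit and eBayes, trend on the mean, two-sided, no covariate), which was first tested on simulated data. The standard errors are limma's moderated ones. Alternatives covered filters, quantile normalization, pseudocounts of 1 and 8, variance priors, weights per library, adjustment for RNA integrity, a replicate block, other thresholds and each library left out. List medians with each library left out, and the transporter ratios without control replicate 3, were added after seeing the data.

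The genes, lists and tests were chosen with earlier results of these data known. Named were the 10 genes, up to 4 genes per list by lowest p, 8 further genes of interest, 3 SMAD targets and the 5 genes most like the largest difference. Symbols matched 96.9% of IDs. Positions and promoters are from RefSeq (GRCh38.p14), and transcript lengths and exon overlaps from a GRCh37 annotation.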

Additional observations from a re-analysis of the deposited data

How the results depend on the processing

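Of the bile acid genes, 3 were called lower and 1 higher. The number lower was 6 with library weights, 6 with a replicate block and 6 at an adjusted p under 0.10, and 2 to 5 with 1 library left out (5 without control replicate 3). The number higher was 2 with library weights, 2 at an adjusted p under 0.10, and 0 to 1 with 1 library left out. Of all genes, 2185 were called higher and 2017 lower. These counts were 4473 and 4554 with library weights, 1149 and 721 after adjustment for the RNA integrity number and 1170 and 791 at an adjusted p under 0.01. The number lower was 3306 with a replicate block. With 1 library left out, 1397 to 3647 were higher and 955 to 3993 lower, the upper ends without control replicate 3. Whether the replicate numbers pair the libraries was not settled. Deviations from the group means correlated at -0.088, 0.375 and 0.478 for numbers 1, 2 and 3. Between libraries of unlike number the correlations ran from -0.47 to 0.25.

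Of the ring, side chain and conjugation enzymes (6 lower, 1 higher), 2 were lower and 0 higher with the RNA integrity covariate and likewise at an adjusted p under 0.01, and 3 to 7 lower and 0 to 1 higher with 1 library left out. Of the other transporters (3 lower), 5 were lower with a replicate block. Of the regulators (10 lower), 3 were lower with the RNA integrity covariate, 2 at an adjusted p under 0.01 and 4 to 11 with 1 library left out. Of the detoxification enzymes (1 lower, 2 higher), 2 were lower with quantile normalization, library weights, a replicate block or an adjusted p under 0.10, and 1 to 2 with 1 library left out. There 1 was higher with the RNA integrity covariate and at an adjusted p under 0.01, and 1 to 2 with 1 library left out. Of the FXR targets (4 lower), 8 were lower with library weights, 2 with the RNA integrity covariate, 7 with a replicate block and 3 to 8 with 1 library left out.

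With library weights CYP8B1 (0.52), SLC51A (-0.60), ABCB11 (-0.47) and ABCC2 (-0.51) were called, and all of these but CYP8B1 with a replicate block. ATP8B1, NR0B2, HNF4A and UGT1A1 were called lower under both. List medians moved by less than 1.5 times with any 1 library left out, except that of the other transporters (-0.31, and -0.19 without control replicate 3). Apart from the cell type markers, which were not followed through all of these alternatives, no named gene of the lists changed direction. The call of CYP7A1 could not be made with a filter at 1 above the lowest value, which removed the gene. The RNA integrity number runs with the groups, and 3 libraries a group limit each of these values.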
